A study of Homo sapiens with 4 samples.

Results

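The genes described here are 39 genes that sense foreign RNA or that interferon induces, chosen by name on the array: 5 RNA sensors (DDX58, IFIH1, DHX58, TLR3 and EIF2AK2), 1 signalling adaptor (MAVS), 5 transcriptional regulators (IRF1, IRF3, IRF7, IRF9 and STAT2) and 28 induced effectors. All 39 were found among the 36337 gene names on the array, and they carried 58 of its 50599 probes. Of the 39, 30 were detected on all 4 arrays, that is, their brightest probe was flagged as well above background on each of them, while 2 were detected on some arrays and 7 on none.

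The cells were GIST-T1, an established human line from a gastrointestinal stromal tumor. They received 100 pmol of either a miR-335 mirVana mimic or mirVana miRNA mimic Negative Control #1 by electroporation (Nucleofector), and total RNA was taken 48 h later. Each group comprised 2 one-color arrays, the negative control arrays carried RNA as well, and untransfected cells were not analysed here, so a response common to both RNAs cannot be seen in the comparison. The mimic is named miR-335 in the title, in the transfection label and in the main description of both mimic samples, but a further description line of both reads miR-34a. The arrays below are those labelled miR-335 mimic, and the microRNA given was not tested, because the array does not measure it. The labels do not say whether replicates came from separate cultures, so p-values measure only the spread between these arrays, which may be technical.

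By way of background, cells that take up double-stranded RNA may answer it with interferon. RIG-I (encoded by DDX58) and MDA5 (IFIH1) bind double-stranded RNA in the cytoplasm and signal through MAVS on mitochondria. TLR3 binds such RNA in endosomes, and PKR (EIF2AK2) halts translation when it binds such RNA. IRF3 and IRF7 then switch on interferon genes, and secreted interferon acts through its receptor on a complex that holds STAT2 and IRF9. That complex binds the interferon-stimulated response element, a repeat of the letters GAAA, in front of effector genes such as the IFIT, OAS and MX families.

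The mature sequences of the microRNAs named by the labels are shown because their seeds (bases 2 to 8, in capitals) set which transcripts they can pair with. The labels do not name an arm, so both arms of miR-335 are given (RefSeq, GRCh38.p14).
hsa-miR-335-5p: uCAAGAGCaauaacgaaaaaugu
hsa-miR-335-3p: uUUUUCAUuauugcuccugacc
hsa-miR-34a-5p: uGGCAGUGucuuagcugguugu
The letters complementary to the miR-335-5p seed, GCTCTTG, occurred in 0 of the 58 probes of the 39 genes and in 0.437% of all probes. Those complementary to the miR-335-3p seed, ATGAAAA, also occurred in 0 of the 58, against 1.22% of all probes. The match to the miR-34a-5p seed, CACTGCC, occurred in 1 probe, that of IFI35, against 0.435% of all. Probes cover a small part of each transcript, so these counts say nothing of the rest of it.

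The interferon-stimulated response element core was sought on both strands as GAAANNGAAA or TTTCNNTTTC, overlaps included, from 250 bases before to 50 bases after each RefSeq start. A promoter was at hand for 30 of the 39 genes, and 22 of these (73.3%) held the core, against 4.38% of 27305 gene symbols. The core was found in 19 of 22 effector promoters, in 3 of 5 sensor and adaptor promoters (IFIH1, TLR3 and EIF2AK2) and in 0 of 3 regulator promoters. The windows below (60 bases, all before the start, core in capitals, 5′ to 3′ on the gene's strand) show effectors with a low value after the mimic (BST2, IFIT1, IFIT3 and PARP14), effectors with a change near 0 (HERC5 and OAS3), effectors that were not detected (IFI44 and SAMD9) and the sensor IFIH1.
BST2 (chr19:17405716-17405775, minus strand): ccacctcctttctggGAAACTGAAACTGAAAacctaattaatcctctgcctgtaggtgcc
IFIT1 (chr10:89392492-89392551, plus strand): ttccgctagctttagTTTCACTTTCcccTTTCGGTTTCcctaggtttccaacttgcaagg
IFIT3 (chr10:89327826-89327885, plus strand): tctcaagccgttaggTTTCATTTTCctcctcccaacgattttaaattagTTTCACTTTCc
PARP14 (chr3:122680779-122680838, plus strand): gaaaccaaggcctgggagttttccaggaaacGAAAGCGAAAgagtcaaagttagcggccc
HERC5 (chr4:88456979-88457038, plus strand): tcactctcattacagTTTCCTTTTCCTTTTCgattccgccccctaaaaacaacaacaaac
OAS3 (chr12:112938316-112938375, plus strand): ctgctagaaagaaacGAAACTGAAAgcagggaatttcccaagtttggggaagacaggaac
IFI44 (chr1:78649729-78649788, plus strand): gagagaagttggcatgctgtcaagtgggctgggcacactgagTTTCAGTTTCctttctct
SAMD9 (chr7:93118071-93118130, minus strand): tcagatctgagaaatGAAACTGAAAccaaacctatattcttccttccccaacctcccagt
IFIH1 (chr2:162318799-162318858, minus strand): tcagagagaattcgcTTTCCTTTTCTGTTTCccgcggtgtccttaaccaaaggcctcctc
The core was held by 15 of 17 promoters of effectors detected on all 4 arrays and by 4 of 5 promoters of the other effectors. Among detected genes it was held by 12 of 15 promoters where both mimic arrays lay below both control arrays and by 5 of 9 of the others, a difference that was not tested. That split mixes gene classes. Of the others, DDX58, MAVS, IRF1 and STAT2 lacked the core and none is an effector, whereas the effectors OAS3, IFIT5, HERC5, ISG20 and IFI6 all held it. Of the lower genes, IRF9 and the effectors IFI35 and XAF1 lacked it. XAF1, the effector with the lowest change on its brightest probe, had no core in either of its promoters, nor had DDX58, MAVS, IRF1, IRF9, STAT2, OAS1 or IFI35.

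The value of a probe is its processed signal on the log2 scale, relative to the 75th percentile of the same array, which lay between 178.8 and 189.7 intensity units, and 40.3% to 41.9% of all probes were detected per array. In limma, 532 of 20328 tested probes (2.62%) were called, that is, had a p below 0.05 after Benjamini-Hochberg adjustment, and 5148 had an unadjusted p below 0.05. Leaving out any 1 of 3 arrays left 0 calls, and leaving out mimic replicate 2 left 8. A single value compared over 2 arrays against 2 cannot reach a two-sided exact permutation p below 0.333. All 4 arrays were on 1 slide, the controls side by side and the mimics side by side, so position on the slide and group cannot be told apart. External spike-in RNAs read 0.19 higher (median, log2) on the mimic arrays, and scaling to them lowers every change below by about that amount, moving the median of all tested probes from -0.01 to -0.20. The defining genes of this tumor were present, with all 5 of KIT, ANO1, ETV1, PDGFRA and PRKCQ detected on all 4 arrays at levels between 0.99 and 7.49. All 5 had a lower mean with the mimic, their summed linear level was 295 and 292 in the controls and 247 and 254 in the mimic arrays, and KIT differed by -0.33 (limma adjusted p 0.0512). Of 6 immune cell markers, LYZ was not found by name and PTPRC and CD3E were detected on 0 arrays (the CD3E probe had a value on 3), whereas CD14 and ITGAM were detected on all 4 and CD68 on 2, at levels of -3.06 to -1.34. The summed linear level of the 4 immune markers with a value on every array was 0.76 and 0.80 in the controls and 0.70 and 0.68 in the mimic arrays, and the part of either marker group in the results was not tested.

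**Figure D1:**
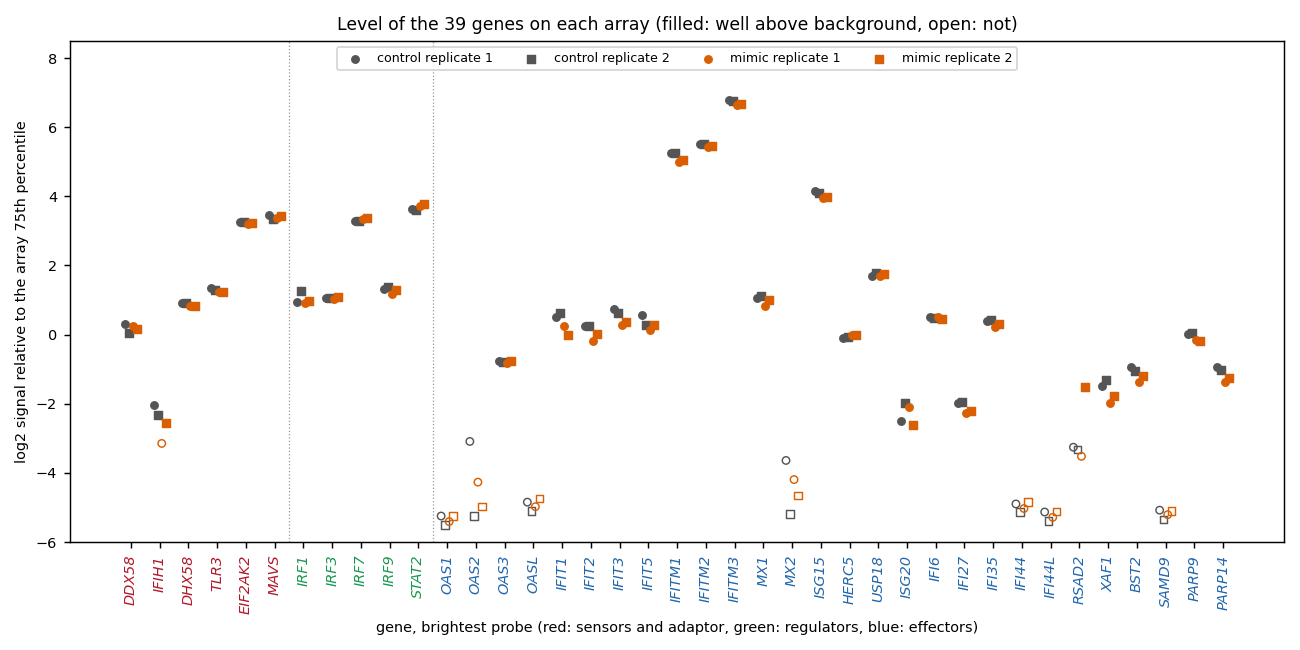
Level of each of the 39 genes (brightest probe) on each array, as log2 signal relative to the 75th percentile of the array, with controls in gray, mimics in orange, circles for replicate 1 and squares for replicate 2. Filled symbols were well above background; 7 effectors have open symbols on all 4 arrays, and RSAD2 was filled on mimic replicate 2 only.

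Of the 6 sensor and adaptor genes, 5 were detected on all 4 arrays, and their median change (mimic minus control, log2, brightest probe) was -0.04, with single genes between -0.09 and 0.02. No probe of the 6 genes passed the adjusted threshold, against 2.62% of all tested probes. Under spike-in scaling the brightest probes of DHX58, TLR3 and EIF2AK2 passed as lower, as did dimmer probes of MAVS. So did 44.9% of all tested probes. The median over the 5 genes was then -0.23, against -0.20 over all tested probes. RIG-I is a helicase that recognizes RNA ends, and its gene DDX58 read 0.32 and 0.06 in the controls and 0.24 and 0.17 with the mimic. The groups overlapped, and the change of 0.02 ± 0.11 (SE) had a limma adjusted p of 0.937. A second probe of DDX58 read -0.11 ± 0.11 (SE). EIF2AK2, encoding the RNA-activated kinase PKR, was among the brighter sensors and read 3.26 and 3.25 in the controls against 3.20 and 3.22 with the mimic. Both mimic values lay below both control values, and the difference of -0.04 ± 0.04 (SE) did not pass (limma adjusted p 0.520). A second, dimmer probe of EIF2AK2 read -0.62 and -0.71 in the controls against -0.84 and -0.74 with the mimic. Its groups did not overlap either, and its change of -0.13 ± 0.06 (SE) did not pass (limma adjusted p 0.296).

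DHX58 encodes LGP2, a helicase without signalling domains that tunes the other cytoplasmic sensors. It read 0.91 and 0.92 in the controls and 0.83 and 0.82 with the mimic, and its change of -0.09 ± 0.04 (SE) had a limma adjusted p of 0.253. TLR3, the endosomal receptor for double-stranded RNA, read 1.35 and 1.28 in the controls and 1.22 and 1.24 with the mimic. The groups of both genes stood apart by a small distance, and for TLR3 the change was -0.09 ± 0.04 (SE; limma adjusted p 0.304). IFIH1, encoding the sensor of long double-stranded RNA MDA5, was the dimmest of the 6. It read -2.03 and -2.33 in the controls and -3.15 and -2.56 with the mimic, and it was not well above background on mimic replicate 1. Its difference of -0.67 ± 0.25 (SE) exceeded 1.5-fold and did not pass the test (limma adjusted p 0.212), and on the mimic side only 1 array measured it.

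MAVS, the adaptor of the cytoplasmic sensors, carried 7 probes, all detected on all 4 arrays. The brightest (chromosome 20, 3847884 to 3847943, hg19) read 3.45 and 3.34 in the controls and 3.37 and 3.43 with the mimic, a change of 0.0024 ± 0.06 (SE) with overlapping groups. The other probes differed among themselves. A probe at 3856711 to 3856770 read -1.17 and -1.17 in the controls against -1.40 and -1.52 with the mimic, a change of -0.29 ± 0.06 (SE; limma adjusted p 0.0982). Another, at 3856703 to 3856762, overlaps it almost completely and read -1.25 and -1.19 against -1.55 and -0.70, so its groups overlapped. Over the 7 probes the changes ran from -0.29 to 0.10, 3 of them lower, and a gene-level direction for MAVS depends on the probe chosen.

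The 5 regulators were all detected on all 4 arrays, with a median change of 0.0038 that became -0.18 under spike-in scaling. STAT2, a transcription factor of the interferon-activated complex, had the highest change of the 39 genes among those detected on all 4 arrays. It read 3.63 and 3.61 in the controls and 3.71 and 3.77 with the mimic. The groups did not overlap, and the change of 0.12 ± 0.04 (SE) had a limma adjusted p of 0.207, which was 0.0497 with an intensity trend in the variance. With that trend 15.2% of all tested probes passed. IRF7, the regulator that amplifies interferon production, read 3.29 and 3.28 in the controls and 3.36 and 3.36 with the mimic (change 0.08 ± 0.04 SE, limma adjusted p 0.282). Under spike-in scaling the changes of STAT2 and IRF7 were -0.07 and -0.11. IRF3, which is activated by phosphorylation rather than by induction, read 1.05 and 1.06 against 1.04 and 1.08.

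IRF9, the DNA-binding part of the interferon-activated complex, read 1.31 and 1.37 in the controls and 1.16 and 1.29 with the mimic, with a change of -0.11 ± 0.06 (SE; limma adjusted p 0.352). IRF1, a regulator that also answers type II interferon, read 0.95 and 1.27 in the controls and 0.92 and 0.96 with the mimic. Mimic replicate 2 lay just above control replicate 1, so the groups overlapped, and its change of -0.17 ± 0.13 (SE) had a limma adjusted p of 0.452. Thus 1 of the 5 regulators lay below and 2 lay above the controls without overlap, against 34.7% and 26.4% of all genes detected on all 4 arrays, and 2 overlapped.

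The effectors were lower with the mimic more often than not. Of 28 effector genes, 20 were detected on all 4 arrays, and 19 of these had a lower mean with the mimic, against 55.5% of the 14816 genes on the array detected in the same way. Their median change was -0.19, against -0.02 over those 14816 genes, and single genes ran from -0.48 to 0.07. Both mimic arrays lay below both control arrays for 14 of the 20 and above them for 1, beside the same 34.7% and 26.4% of all genes. Over all detected members these counts were 18 and 3 of 30. An unadjusted limma p below 0.05 with a lower mean was seen for 12 of the 20, against 14.6% of all genes. These shares describe a list chosen with earlier results known and carry no test, and after adjustment over all tested probes 1 of the 44 tested probes of the 39 genes (2.27%), a probe of BST2, passed, against 2.62% of all tested probes. Under spike-in scaling 31 of the 44 probes, of 23 of the 39 genes, passed as lower, and 44.9% of all tested probes did so too. The difference between effectors and sensors was not tested.

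**Figure D2:**
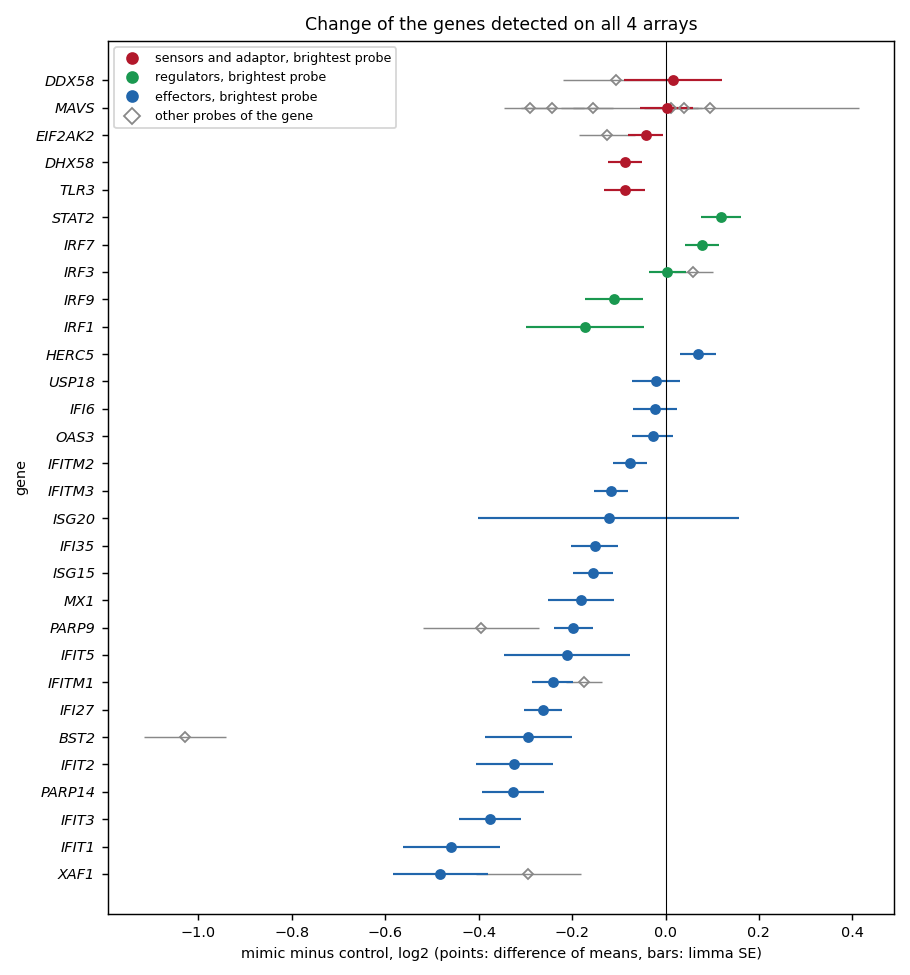
Change (mimic minus control, log2) of the 30 genes detected on all 4 arrays, with limma standard errors as bars; colored circles are the brightest probe of each gene and open gray diamonds its other probes detected on all 4 arrays. On brightest probes effectors reach from -0.48 (XAF1) to 0.07 (HERC5), and sensors, adaptor and regulators from -0.17 to 0.12. The diamonds of MAVS reach from -0.29 to 0.10, and the diamond at -1.03 is the other probe of BST2. IFIH1 was not detected on all 4 arrays and is not shown.

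BST2 encodes tetherin, a membrane protein that holds budding viruses at the cell surface. Its probe on chromosome 19, 17514054 to 17514113 (minus strand, hg19), read -1.54 and -1.34 in the controls and -2.52 and -2.42 with the mimic. This is a fall of 1.03 on the log2 scale ± 0.09 (SE), or 2.04-fold, and its limma adjusted p of 0.0388 was the only one below 0.05 among the 44 tested probes of the 39 genes. The call was lost when any 1 array was left out (limma adjusted p 0.140 to 0.196, change -1.13 to -0.93), with the replicate block (0.125) and with no detection filter (0.410), and with normexp background correction the change was -0.35, with a limma adjusted p of 0.0115. Its mimic values lay near the dimmest signals that counted as well above background, which were -3.19 to -2.93 by array. The brighter BST2 probe, at 17513748 to 17513807 on the same strand, read -0.93 and -1.05 in the controls and -1.38 and -1.19 with the mimic, a difference of -0.29 ± 0.09 (SE) that did not pass (limma adjusted p 0.175). Both probes were lower on both mimic arrays, but the sizes differed, and the difference between the probes was not tested.

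The IFIT genes lie next to each other on chromosome 10, and their products bind viral RNA or block its translation. All 4 were detected on all 4 arrays, and all 4 had a lower mean, with a median change of -0.35. IFIT1 (chromosome 10, 91163438 to 91163497, hg19) read 0.52 and 0.62 in the controls and 0.24 and -0.01 with the mimic. The groups stood apart by more than the spread of either, and the change of -0.46 ± 0.10 (SE) had a limma adjusted p of 0.120. IFIT3, which binds and stabilizes IFIT1, read 0.75 and 0.63 in the controls and 0.27 and 0.36 with the mimic, a change of -0.38 ± 0.07 (SE; limma adjusted p 0.0868). IFIT2, another RNA-binding member, read 0.24 and 0.26 in the controls and -0.17 and 0.03 with the mimic (change -0.32 ± 0.08 SE, limma adjusted p 0.136). With normexp correction IFIT1, IFIT2 and IFIT3 passed, with limma adjusted p of 0.0409, 0.0422 and 0.0259, and so they did with an intensity trend in the variance. These settings called more probes in general, 7.62% of all tested probes with normexp and 15.2% with the trend, against 2.62% without either. IFIT5 differed by -0.21, and its groups overlapped.

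XAF1 encodes a protein that favors apoptosis by opposing an inhibitor of caspases. Its brightest probe read -1.48 and -1.31 in the controls and -1.97 and -1.78 with the mimic, the lowest change among brightest probes of effectors detected on all 4 arrays at -0.48 ± 0.10 (SE; limma adjusted p 0.108), and its other probe differed by -0.29 ± 0.11 (SE). PARP14, a macrodomain-bearing transferase of ADP-ribose, read -0.93 and -1.04 in the controls and -1.36 and -1.26 with the mimic (-0.33 ± 0.07 SE, limma adjusted p 0.104). Its neighbor on chromosome 3 is PARP9, which forms a complex with DTX3L and shares a promoter region with it. The brightest PARP9 probe differed by -0.20 ± 0.04 (SE) and the other one by -0.39 ± 0.12 (SE), and DTX3L differed by -0.33 ± 0.07 (SE). PARP9 and DTX3L were named after their values were seen. None of these passed over all probes.

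The IFITM proteins sit in membranes and hinder viral entry, and their genes were the brightest of the 39. IFITM3 read 6.77 and 6.77 in the controls and 6.64 and 6.66 with the mimic, and IFITM2 read 5.51 and 5.51 against 5.42 and 5.45. The changes of -0.12 ± 0.04 (SE) and -0.08 ± 0.04 (SE) were small, although neither gene's groups overlapped (limma adjusted p 0.174 and 0.298). IFITM1, named after its values were seen, read 5.26 and 5.25 against 4.98 and 5.05 on its brightest probe, a change of -0.24 ± 0.04 (SE; limma adjusted p 0.0881), and its other probe differed by -0.17 ± 0.04 (SE). These paralogs are similar in sequence, and how far their probes share signal was not tested.

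At the upper end of the effectors, HERC5, the ligase that attaches the ubiquitin-like protein ISG15 to other proteins, read -0.09 and -0.06 in the controls and -0.01 and 0.0021 with the mimic. It was the only detected effector with a higher mean, by 0.07 ± 0.04 (SE; limma adjusted p 0.338), and its change was -0.12 under spike-in scaling. USP18, which removes ISG15 and dampens receptor signalling, read 1.70 and 1.78 against 1.69 and 1.75, and its change of -0.02 ± 0.05 (SE) turned to 0.0045 with quantile normalization. IFI6, a mitochondrial and endoplasmic reticulum protein, read 0.52 and 0.47 against 0.51 and 0.44. OAS3, which makes the second messenger that activates RNase L, read -0.76 and -0.80 against -0.83 and -0.78. The groups of USP18, IFI6 and OAS3 overlapped, and their limma adjusted p ran from 0.725 to 0.829. The remaining effectors detected on all 4 arrays (IFIT5, MX1, ISG15, ISG20, IFI27 and IFI35, beside PARP9 and IFITM1) differed by -0.26 to -0.12. The smallest adjusted p over brightest probes, 0.0761 in limma, was that of IFI27.

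The effectors that were not detected include several that interferon induces strongly. OAS1, OAS2, OASL, MX2, IFI44, IFI44L and SAMD9 were well above background on 0 of 4 arrays, with values between -5.51 and -3.09 and groups that overlapped, so no change could be measured for them at this signal. RSAD2, which encodes the antiviral enzyme viperin, read -3.26 and -3.32 in the controls and -3.52 and -1.52 with the mimic. Only mimic replicate 2 was well above background, from 1 spot, and the other mimic array was the lowest of the 4. Of the families with these absences, OAS had 1 of 4 genes and MX 1 of 2 detected on all 4 arrays.

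The change of the members was set against their level, because dim probes scatter more. Among genes detected on all 4 arrays with a mean level below -1, the 5 members (all effectors) had a median change of -0.29, and the 2540 genes of that range had one of -0.01. Between -1 and 1 the 9 effectors had a median of -0.20 against -0.02 over 3964 genes. Between 1 and 3 the 2 effectors had -0.10, and at 3 or above the 4 effectors had -0.14, against -0.02 over all genes in both ranges. In each range the median of the effectors was below that of all genes.

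**Figure D3:**
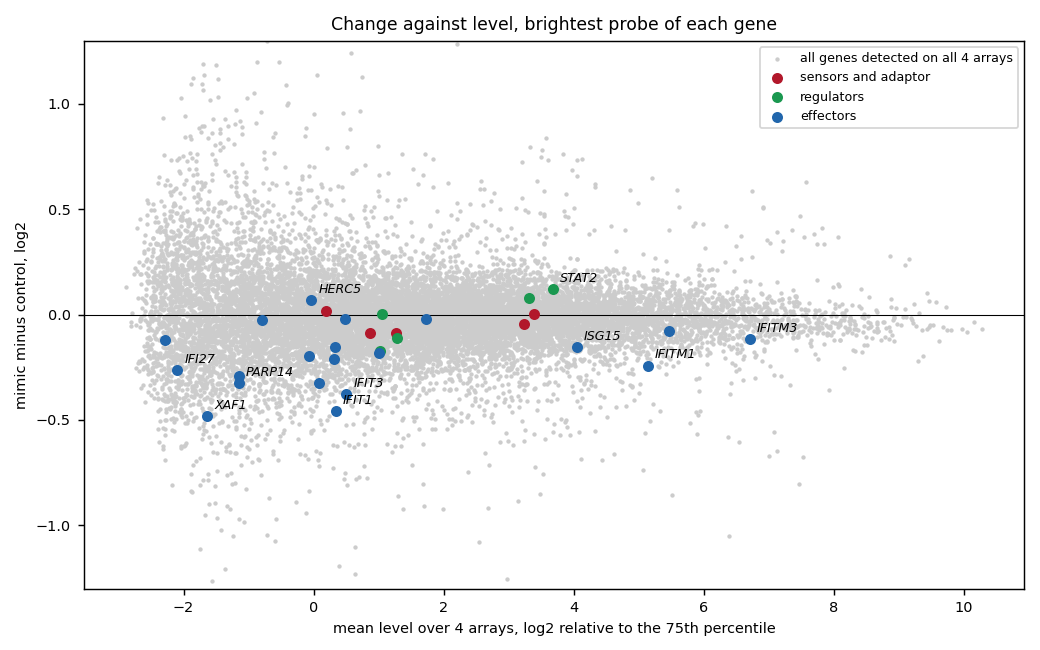
Change (mimic minus control, log2) against mean level (log2 relative to the 75th percentile) for the 14816 genes detected on all 4 arrays, in gray, with sensors and adaptor in red, regulators in green and effectors in blue; 21 genes with a change beyond 1.3 in either direction are outside the axis. The blue points lie mostly below 0 within the gray cloud.

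By size alone, 2 of the 44 tested probes of these genes differed by more than 1.5-fold, namely the BST2 probe above and IFIH1, against 3.9% of all tested probes. No tested probe of the 39 genes was more than 1.5-fold higher.

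The rest of the pathway was read from 94 further genes, of which 90 had a probe and 53 were detected on all 4 arrays. None passed the adjusted threshold, against 2.62% of all tested probes. Of the 53, 40 were lower, against 55.5% of all genes detected on all 4 arrays. Their median change was -0.12, against -0.02 over all those genes. Interferon ligands were at background: of 17 with a probe, 15 were detected on no array. IFNB1, encoding interferon beta, read -5.26 and -5.30 in the controls and -1.90 and -5.24 with the mimic, from 1 spot per array. Its signal was well above background on mimic replicate 1 only, while mimic replicate 2 was near the controls. IFNK, encoding an interferon of keratinocytes and named after its values were seen, showed the same on that array, with -4.79 and -4.59 in the controls and -1.94 and -4.72 with the mimic. Neither gene could be tested. The chemokine genes CXCL10, CXCL11 and CCL5, also named after their values were seen, were detected on 0 arrays.

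Receptors and JAK-STAT genes were detected on all 4 arrays for 9 of 9, with a median change of -0.15. IFNAR1, a chain of the type I interferon receptor, read 1.14 and 0.99 in the controls and 0.49 and 0.50 with the mimic. The gap between the groups exceeded the spread in each, and the change of -0.57 ± 0.07 (SE) had a limma adjusted p of 0.0537, which was 0.0453 when only probes detected on all 4 arrays were tested. TYK2, a kinase bound to IFNAR1, read 1.35 and 1.44 against 1.55 and 1.47 (change 0.12 ± 0.06 SE, limma adjusted p 0.294), and -0.07 was its change under spike-in scaling.

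Of 7 negative regulators, 6 were detected on all 4 arrays, with a median change of 0.05, and 2 were lower and 4 higher. Among them, RNF125, a ubiquitin ligase that marks RIG-I and MAVS for degradation, read -0.33 and -0.25 in the controls and -1.06 and -0.84 with the mimic. Its change of -0.66 ± 0.09 (SE) was the lowest of the 53 genes (limma adjusted p 0.0690). TNFAIP3, encoding the NF-kB inhibitor A20, read 0.16 and 0.23 in the controls and -0.37 and -0.20 with the mimic (-0.48 ± 0.08 SE, limma adjusted p 0.0778). PIAS1, an inhibitor of STAT binding to DNA, read -2.33 and -2.26 in the controls and -2.08 and -2.09 with the mimic, with the highest change of the 53 genes at 0.21 ± 0.04 (SE; limma adjusted p 0.108). TARBP2, a partner of Dicer that also restrains PKR, read 2.28 and 2.26 against 2.38 and 2.40, a change of 0.12 ± 0.04 (SE; limma adjusted p 0.166) that became -0.07 under spike-in scaling. The 26 detected genes of a list of other induced genes had a median change of -0.14, with 22 lower and 0 past the threshold. The 12 detected genes of other nucleic acid sensing had a median of -0.03, with 9 lower. Of all genes detected on all 4 arrays 55.5% were lower, with a median of -0.02, and 2.62% of all tested probes passed.

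**Figure D4:**
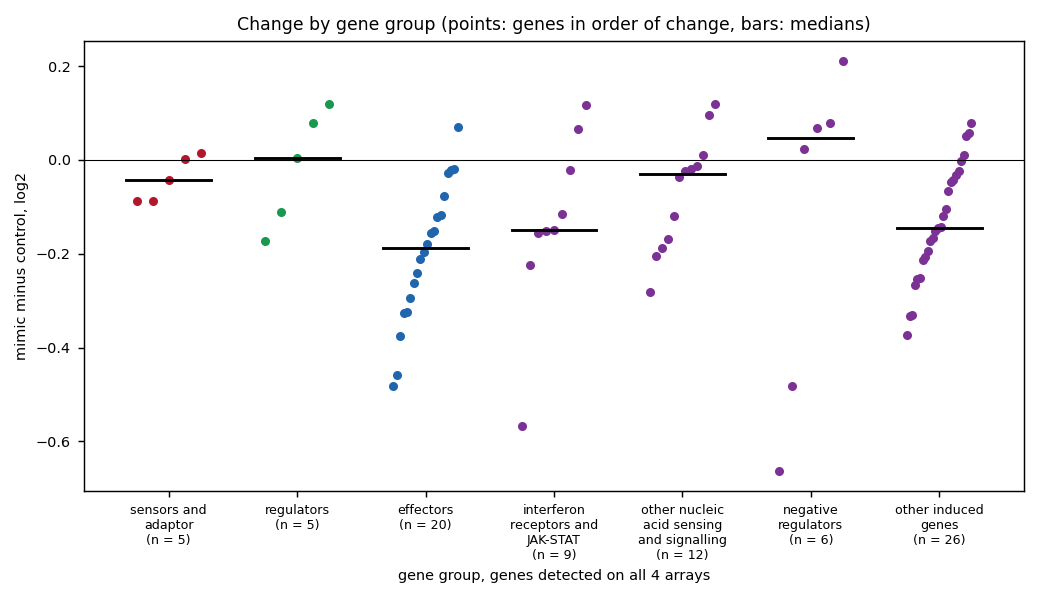
Change (mimic minus control, log2) of genes detected on all 4 arrays, by group, with each point a gene in order of its change and the bar the group median. The medians were -0.19 for effectors, -0.15 for interferon receptors and JAK-STAT genes and -0.14 for other induced genes. They were -0.04 for sensors and adaptor, -0.03 for other nucleic acid sensing, 0.0038 for regulators and 0.05 for negative regulators. RNF125 and IFNAR1 are the lowest points.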

How the data were processed

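Total RNA (100 ng per sample, per the labels) was amplified with 1 dye and hybridized to Agilent human arrays by the authors. The deposited scanner files hold spot intensity from Feature Extraction 10.7.3.1 (10.7 in the submitters' processing notes), background-subtracted within each array and not normalized between arrays, and the deposited series table holds the same intensity rounded (largest difference 0.497%).

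Outlier spots were left out, spots of a probe were averaged as log2 intensity, and the 75th percentile of each array was subtracted. Detection required the well-above-background flag on at least 0.5 of a probe's remaining spots. Probes detected on both arrays of at least 1 group with values on all 4 were tested with limma 3.58.1 in R 4.3.3, with Benjamini-Hochberg adjustment over all tested probes. No spot was saturated. A gene was represented by its brightest probe. The fit was also tested on simulated data in which 200 of 20328 probes were changed, and the rates hold for that share only. It called 35.1% of probes given a 1.5-fold change, 55.2% of those given 2-fold and 83.9% of those given 3-fold. Of unchanged probes it called 0.0149%. A probe that did not pass may therefore still have changed.

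The genes and lists were chosen with earlier results of these data known. Values by array were given for sensors, adaptor and regulators, for the 6 lowest and 6 highest changes among detected effectors and every effector past the threshold, and for the 3 lowest and 3 highest of the pathway list with IFNB1. Some genes of these lists are not reported here and were left out of the counts. The study limited changes at 1.5-fold and names no test for arrays. Alternatives covered scaling, background, detection filter, variance model, the methods' t-test, the replicate block and leaving out each array. Replicates 1 and 2 did not pair across groups (correlation of their differences 0.03).

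Probe positions and gene names are those of the array files (hg19). Of the 39 names, 38 are RefSeq symbols and 1 (DDX58) is a synonym. Whether a probe lies in a coding or untranslated part was not analysed here. Promoter and microRNA sequences are RefSeq's (GRCh38.p14). The number of series-table columns matched to no sample was 0. Figures were drawn with matplotlib.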

Additional observations from a re-analysis of the deposited data

How the results depend on the processing

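The precision is limited by the number of arrays (2 per group) and by signals near background. A block for slide or scan was not run, because all arrays shared 1 slide and 1 scan. The median of the detected members kept its sign in every alternative run, while single genes with a change near 0 did not. The cause of the differences below was not tested.

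The calls over all tested probes (532) and among member genes (1) became 9642 (47.4% of tested probes) and 23 (all lower) with spike-in scaling, 1550 (7.62%) and 4 (all lower) with normexp, 3083 (15.2%) and 9 (8 lower and 1, STAT2, higher) with an intensity trend, 4115 and 12 (11 lower and 1, IRF7, higher) with the methods' t-test unadjusted, and 0 and 0 with that test adjusted or with no filter (3627 probes at an unadjusted p below 0.05). With the replicate block the counts were 0 and 0, with 4400 probes at an unadjusted p below 0.05, although the numbers did not pair the samples. Leaving out 1 array gave 0 to 8 probes and 0 to 0 member genes, with 3578 to 3907 probes at an unadjusted p below 0.05.

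With spike-in scaling the median change was -0.31 for members, -0.23 for sensors and adaptor and -0.18 for regulators. It was -0.38 for effectors and -0.31 for the pathway list, against a shift of all probes to -0.20. Members stood 0.11 below all tested probes, as in the report's scaling. That gap could not differ, because spike-in scaling subtracts the same constant from every probe of an array. Groups without overlap then numbered 29 lower and 0 higher of 30 members, against 79.2% and 4.95% of all genes detected on all 4 arrays, and 4 member probes passed 1.5-fold, against 5.16% of all tested probes. With normexp the medians were -0.088 for members and -0.12 for effectors, and 0 member probes passed 1.5-fold, against 0.846% of all tested probes. With no filter they were -0.088 (members), -0.064 (sensors and adaptor), -0.14 (effectors) and -0.024 (pathway). Without a filter 5 member probes passed 1.5-fold, against 12.0% of all probes then tested. When only probes detected on all 4 arrays were kept, 1 member probe did, against 2.34% of all. The sensor median was -0.064 with genes detected on both arrays of 1 group, an alternative chosen after seeing the data, and -0.084 with the mean over a gene's probes. Leaving out 1 array gave medians of -0.15 to -0.11 for members, -0.080 to -0.030 for sensors and adaptor, -0.019 to 0.027 for regulators, -0.22 to -0.17 for effectors and -0.13 to -0.11 for the pathway list, with 20 to 23 of 30 genes lower and 3 to 5 higher without overlap, against 42.3% to 47.6% and 32.9% to 38.6% of all genes, and 1 to 2 probes past 1.5-fold, against 4.22% to 4.73% of all tested probes.

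Changes that turned sign with spike-in scaling were those of DDX58 (-0.17), MAVS (-0.19), IRF3 (-0.18), IRF7 (-0.11), STAT2 (-0.068), HERC5 (-0.12), TYK2 (-0.070) and TARBP2 (-0.068). MAVS read -0.055 with normexp and USP18 read 0.0045 with quantile normalization. Leaving out 1 array spread DDX58 from -0.11 to 0.14, MAVS from -0.050 to 0.055, IRF3 from -0.019 to 0.027, OAS3 from -0.057 to 0.0024, IFI6 from -0.056 to 0.012 and USP18 from -0.058 to 0.018.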
